A study of Mus musculus with 24 samples.

Results

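The genes described here are 10 genes of arginine uptake, nitric oxide synthesis and polyamine metabolism, out of 34866 gene identifiers listed in any of 4 expression tables. They are the cationic amino acid transporters Slc7a1 and Slc7a2, the inducible nitric oxide synthase Nos2, the arginine-making enzymes Ass1 and Asl, the arginases Arg1 and Arg2, and the polyamine enzymes Odc1, Sms and Sat1. The group was put together because Slc7a2 was almost lost in one line and Nos2 appeared in another. The members were chosen by the measured change of Slc7a2 in MC38 and of Nos2 in Hepa1-6, and those 2 values are therefore given as descriptions with no test, and they enter no count. The other genes were added for their biochemical role.

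RNA was sequenced from 4 mouse tumour cell lines kept in DMEM and fetal bovine serum: MC38 (colon adenocarcinoma), LLC1 (Lewis lung carcinoma), AKR (esophageal carcinoma) and Hepa1-6 (hepatocellular carcinoma). In each line, cells with a CRISPR guide to B2m (sgB2m), the MHC class I light chain gene, were set against cells with a non-targeting guide (sgNT). Each of the 8 groups had 3 libraries, 24 in all. The series' design text gives the purpose as asking how loss of MHC class I affects tumour growth. The labels do not say whether edited cells were clones or pools, or whether the 3 libraries were separate cultures, so p-values measure only the spread between these libraries.

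Arginine enters cells through cationic amino acid transporters, of which Slc7a1 is the widespread form and Slc7a2 a form known from liver and activated macrophages. Nos2 oxidises arginine to nitric oxide and citrulline, and Ass1 and Asl turn citrulline back into arginine. Arginases split arginine into urea and ornithine, from which Odc1 makes putrescine. Sms adds an aminopropyl group to spermidine to give spermine, and Sat1 acetylates spermidine and spermine for export or breakdown.

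Promoter sequences are shown for the polyamine enzymes, because Odc1 and Sms fell together in MC38 and LLC1 while Sat1 fell in MC38 and rose in LLC1. The RefSeq table (GRCm38.p6) held start sites for 5 of the 10 genes: Ass1, Odc1, Sat1, Slc7a1 and Sms. Each printed run lies in the 250 bases before an annotated start, 5′ to 3′ on the gene's strand, without bases that GENCODE places in an exon. Capitals mark every match, on either strand, to the GC box letters GGGCGG, the E-box letters CACGTG or the TATA letters TATAAA.
Odc1, chr12:17544623-17544793, plus strand: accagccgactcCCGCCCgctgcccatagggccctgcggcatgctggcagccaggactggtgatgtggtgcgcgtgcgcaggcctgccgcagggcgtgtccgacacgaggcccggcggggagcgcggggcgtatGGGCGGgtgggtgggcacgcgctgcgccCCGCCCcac
Sms, first listed start, chrX:157492288-157492537, minus strand: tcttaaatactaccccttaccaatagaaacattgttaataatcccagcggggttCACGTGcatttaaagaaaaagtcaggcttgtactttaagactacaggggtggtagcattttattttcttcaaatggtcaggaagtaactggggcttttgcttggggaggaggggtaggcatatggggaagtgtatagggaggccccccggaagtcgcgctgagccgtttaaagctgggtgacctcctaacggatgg
Sms, the other listed start, chrX:157491373-157491618, minus strand: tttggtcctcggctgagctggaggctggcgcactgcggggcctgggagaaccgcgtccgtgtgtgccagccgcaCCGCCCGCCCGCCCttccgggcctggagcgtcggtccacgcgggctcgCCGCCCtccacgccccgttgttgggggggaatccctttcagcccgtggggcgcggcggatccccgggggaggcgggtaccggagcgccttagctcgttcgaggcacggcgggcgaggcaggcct
Sat1, chrX:155216450-155216699, minus strand: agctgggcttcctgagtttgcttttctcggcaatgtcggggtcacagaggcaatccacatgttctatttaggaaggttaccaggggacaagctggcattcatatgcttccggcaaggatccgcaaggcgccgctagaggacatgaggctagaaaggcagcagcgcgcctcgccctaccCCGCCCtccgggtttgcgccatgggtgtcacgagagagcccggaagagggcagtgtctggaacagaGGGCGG

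The full 250-base window of Odc1, key enzyme of polyamine synthesis, held 4 GC box matches, of which 3 lie in the printed run. The first Sms window held 1 E-box, beginning 196 bases before the start, and no GC box. The other Sms window held 4 GC box matches, of which 3 overlap in a run of repeated CCGCCC letters. Sat1 had 2 GC boxes, the nearer beginning 6 bases before the start. Among the other windows, Ass1 held 1 E-box and 1 GC box, the first Slc7a1 window held 1 GC box, and the other Slc7a1 window held 1 TATA match. Of all 32851 windows of this length in the table, 32.7% held a GC box, 6.02% held CACGTG and 12.4% held TATAAA. The GC box is thus common, and the E-box and TATA letters are less so. All these matches describe the windows only.

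Values are normalised counts, that is reads divided by the library's size factor, with mean ± SD of n = 3 libraries per group. A log2 change is the mean of log2(normalised count + 1) in sgB2m minus that in sgNT, ± standard error, tested with limma's moderated test and adjusted by the Benjamini-Hochberg method over all genes tested in the line. Reads counted per library ranged from 25.0 M to 49.7 M. B2m itself was lower in every sgB2m library than in every sgNT library of its line, with fold differences of 3.43 (MC38), 3.28 (LLC1), 2.97 (AKR) and 2.56 (Hepa1-6); the position of the guide is not given in the sources used here. Albumin and alpha-fetoprotein RNA marked Hepa1-6 as liver-derived. The other labels had weaker support: MC38 had no entry for the colon genes Cdx2, Cdh17, Epcam and Krt20, LLC1 had Sftpc at 0 in sgNT and Nkx2-1 not listed, and AKR had Krt14 at 0 in sgNT and Krt5 not listed. Other genes of these marker lists had reads. Summed sgNT levels were 218 to 225 (colon list, MC38), 1575 to 1643 (lung list, LLC1) and 605 to 618 (squamous list, AKR). Each list was higher in another line: 71043 to 71892 (colon, Hepa1-6), 3383 to 3476 (lung, Hepa1-6) and 2206 to 2398 (squamous, MC38). The lines were normalised separately. The pan-leukocyte gene Ptprc had at most 8 reads in any group.

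**Figure D1:**
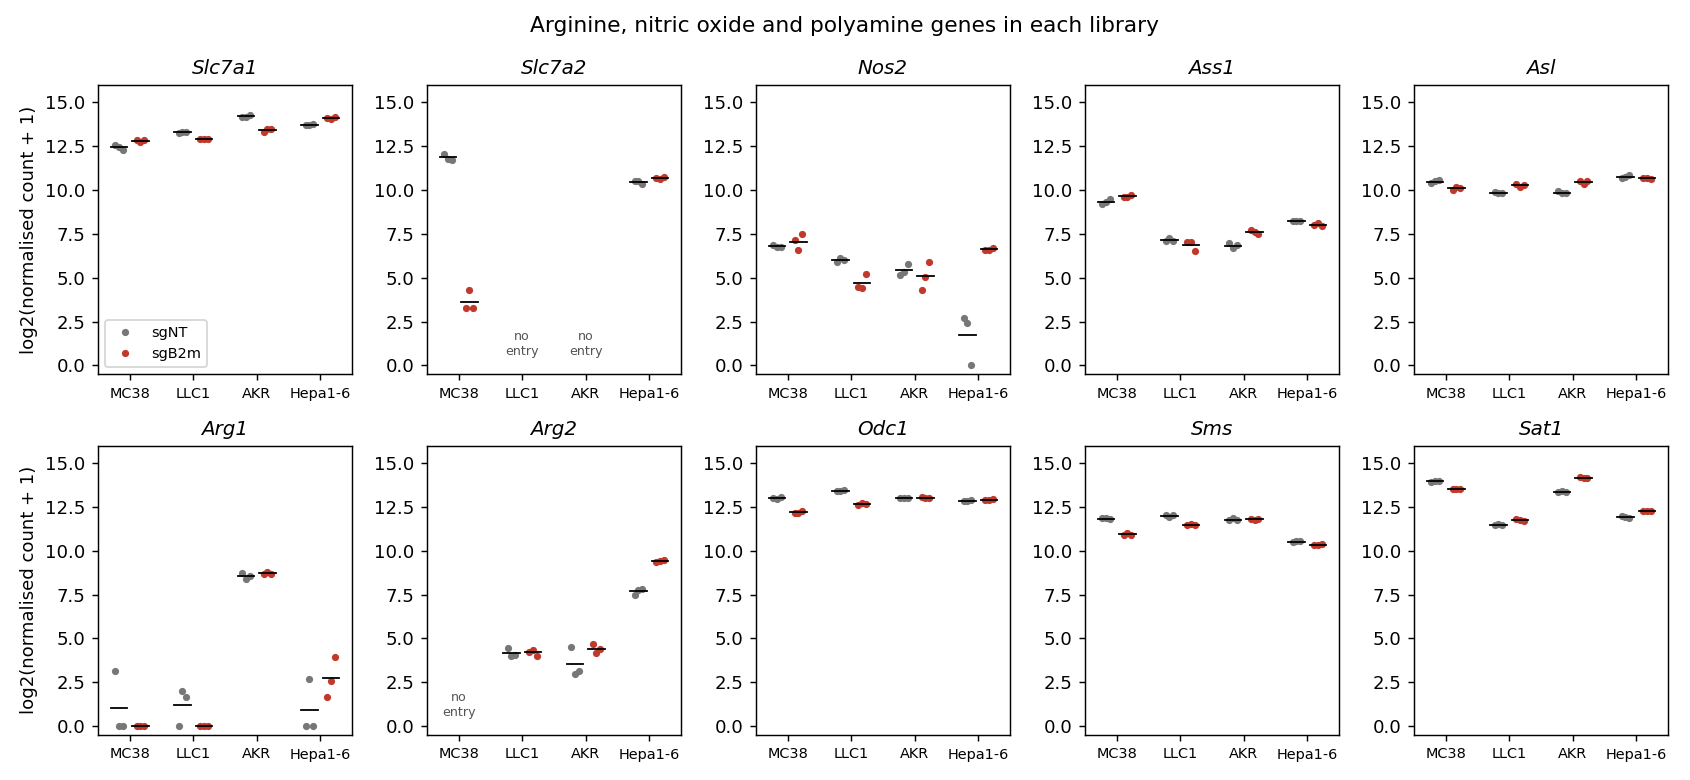
Each panel shows 1 gene, with log2(normalised count + 1) on the vertical axis and the 4 lines on the horizontal axis. Points are single libraries (grey sgNT, red sgB2m), bars are group means, and "no entry" marks lines whose table does not list the gene. Slc7a2 in MC38 falls from above 11 to below 5, and Nos2 in Hepa1-6 rises from below 3 to above 6.

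Of the 10 genes, 9 had entries in the tables of MC38, LLC1 and AKR, and 10 in that of Hepa1-6. Slc7a2 had no entry in LLC1 or AKR, and Arg2 had none in MC38. A gene was tested where at least 3 of the 6 libraries of a line had a log2 value of at least 3.5, which Arg1 met only in AKR. Without the value that chose the group, 7 genes were tested in MC38, of which 2 rose and 4 fell, where 31.8% of all tested genes were called. In Hepa1-6, 8 were tested, 4 rose and 1 fell, where 37.8% were called; the rule looked at these 2 comparisons, so nothing is read from those counts. LLC1 had 8 tested, of which 2 rose and 4 fell, beside 42.4% of all genes called. AKR had 9 tested, of which 3 rose and 1 fell, a share close to the 42.9% of all genes called there. Median log2 changes of the tested genes were -0.37 (MC38), -0.32 (LLC1), 0.14 (AKR) and 0.15 (Hepa1-6), against medians of all genes within 0.01 of 0.

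**Figure D2:**
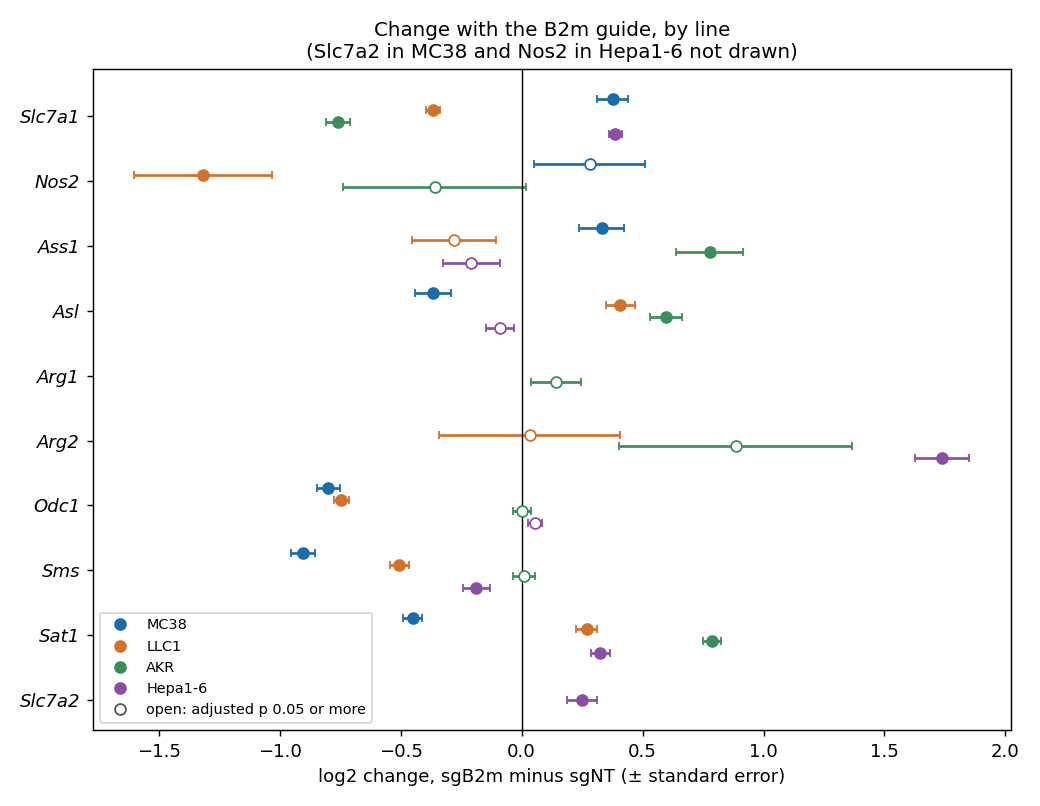
Log2 change of each gene, sgB2m minus sgNT, on the horizontal axis with its standard error; colours are lines, and open circles have an adjusted p of 0.05 or more. Slc7a2 in MC38 and Nos2 in Hepa1-6 are left out because they chose the group. Odc1 and Sms lie left of 0 in MC38 and LLC1, and Arg2 in Hepa1-6 lies farthest right at 1.74.

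Slc7a1 (chr5:148327410-148399904, minus strand), the housekeeping arginine importer, was abundant in all 4 lines and changed in each, but not in one direction. In AKR the sgNT libraries had 18610, 18379 and 19661 normalised counts, and the sgB2m libraries had 10378, 11697 and 11446. Every edited library was lower, and the 2 groups were far apart (-0.76 ± 0.05, adjusted p = 1.11e-06). LLC1 went the same way, from 9884, 10082 and 10113 to 7855, 7695 and 7801 normalised counts (-0.37 ± 0.03, adjusted p = 1.46e-07). In Hepa1-6 the transporter rose from 13404, 13526 and 13827 to 17954, 17129 and 18205 (0.39 ± 0.03, adjusted p = 1.72e-08). MC38 also rose, from 6018, 5544 and 5044 to 7383, 6810 and 7322 (0.38 ± 0.07, adjusted p = 0.00185). Slc7a1 thus rose in the lines whose controls also expressed Slc7a2 and fell in those whose tables do not list it, which with 4 lines is a description.

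Slc7a2 (chr8:40862396-40922308, plus strand), the transporter that supplies arginine to Nos2 in activated macrophages, was expressed in MC38 and Hepa1-6. In MC38 the sgNT libraries had 4256, 3560 and 3403 normalised counts and the sgB2m libraries 8.67, 18.4 and 8.55. All 3 edited libraries were near the bottom of the scale: 34 reads were left against 11978 in sgNT, and the means of 3740 ± 454 and 11.9 ± 5.68 differed 314-fold. The log2 change was -8.26, and -7.59 with a pseudocount of 8. In Hepa1-6, which the choice of genes did not use for Slc7a2, the gene was higher in the edited cells. There the sgNT libraries had 1446, 1446 and 1278 and the sgB2m libraries 1648, 1612 and 1688 normalised counts (0.25 ± 0.06, adjusted p = 0.00423).

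In the control cells Slc7a2 stood at 105 ± 12.3 CPM (reads scaled to a common library total) in MC38 and 48.8 ± 3.70 in Hepa1-6, with ranges apart. Per kilobase of exon in MC38 sgNT (RPKM), Slc7a2 was at 11.5 beside 13.5 for Slc7a1, so the 2 transporters were at similar levels. In MC38 sgB2m the same quantities were 0.0359 for Slc7a2 and 17.2 for Slc7a1. Hepa1-6 sgNT had 5.35 for Slc7a2 and 41.4 for Slc7a1.

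The loss in MC38 took in the genes on either side of Slc7a2. Pdgfrl, a gene 3.90 kb downstream on the same strand, had 456 reads over the 3 sgNT libraries and 0 over the sgB2m libraries, which is at least 46.2-fold lower against a floor of 3 reads per library. Gm5345, a processed pseudogene 7.37 kb upstream on the opposite strand, went from 441 reads to 0, at least 45.5-fold lower. Both passed the filter through sgNT alone and so had to differ, and reads of a processed pseudogene can also come from its parent gene. Beyond them the pattern changed: Mtus1, 68.6 kb away, rose (0.83 ± 0.22, adjusted p = 0.0175), while Mtmr7, 228 kb to the other side, fell (-1.05 ± 0.26, adjusted p = 0.0127).

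Within 500 kb of Slc7a2 the tables listed 17 other genes, of which 11 were tested in MC38, with 1 higher and 6 lower, where 31.8% of all tested genes were called. The 6 include Gm5345 and Pdgfrl, which had to differ. The remaining lower genes were Zdhhc2 (-0.84 ± 0.07), Cnot7 (-0.25 ± 0.05) and Frg1 (-0.24 ± 0.08). Micu3, Vps37a, Pcm1 and Asah1 were not called, with log2 changes between -0.18 and 0.16. Below the filter in MC38 were Gm45660, Fgl1 and Gm16348, while Gm8423, Gm8436 and B430010I23Rik were not listed there. In Hepa1-6, 12 neighbours were tested, 3 rose and 2 fell, where 37.8% of all tested genes were called. Gm5345 was there at 71.8 ± 13.5 in sgNT and 104 ± 2.53 in sgB2m (0.55 ± 0.21, adjusted p = 0.0568), and Pdgfrl had 26 and 11 reads. Reads of Gm5345, Slc7a2 and Pdgfrl were thus all present in edited Hepa1-6 cells, the other line that expresses Slc7a2.

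**Figure D3:**
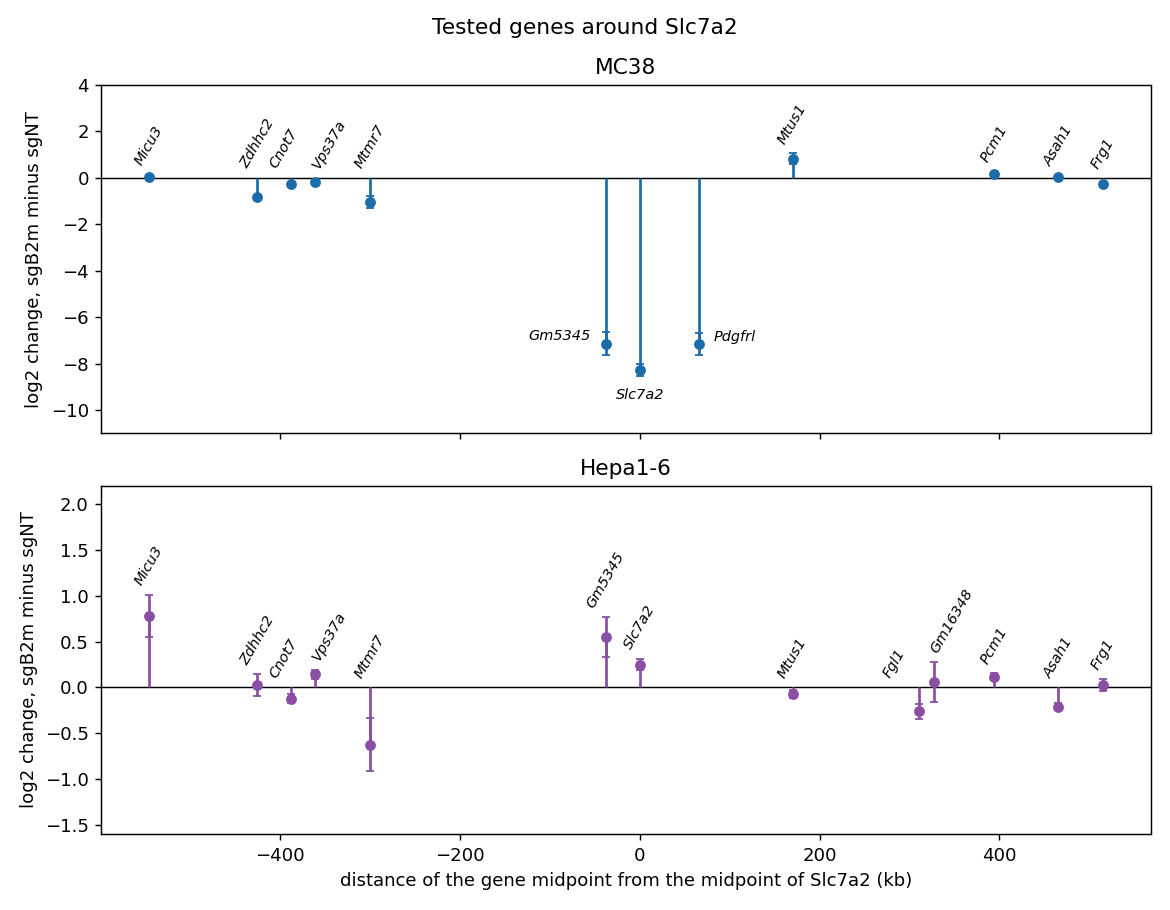
Log2 change (sgB2m minus sgNT, ± standard error) of each tested gene within 500 kb of Slc7a2, by distance of gene midpoints in kb, in MC38 (top) and Hepa1-6 (bottom, different scale). In MC38, Gm5345, Slc7a2 and Pdgfrl are low together between genes that changed by about 1 or less; the fitted values of Gm5345 and Pdgfrl rest on 0 reads in sgB2m and depend on the pseudocount.

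Nos2 (chr11:78920787-78960254, plus strand), which makes nitric oxide in large amounts in cytokine-treated cells, was a rare transcript in all 4 lines. In Hepa1-6 the sgNT libraries had 5.46, 4.37 and 0 normalised counts, and the sgB2m libraries 95.1, 94.2 and 103.9. The 3 edited libraries were close to each other and far above the controls, on 275 reads against 10, a 29.8-fold difference of means. The log2 change was 4.92, and 3.26 with a pseudocount of 8; Nos2 passed the filter there through sgB2m alone.

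LLC1 showed the opposite, with 57.9, 68.2 and 64.1 normalised counts in sgNT and 20.8, 20.7 and 35.4 in sgB2m. All edited libraries were below all controls (-1.32 ± 0.28, adjusted p = 0.00178), on 187 and 79 reads. In MC38 the values were 115, 105 and 108 in sgNT and 139, 95.5 and 177 in sgB2m, overlapping (0.28 ± 0.23, adjusted p = 0.391). AKR also overlapped, with 35.3, 39.9 and 53.9 in sgNT and 18.9, 31.6 and 58.3 in sgB2m (-0.36 ± 0.38, adjusted p = 0.479). Across MC38, LLC1 and AKR, the lines not used to choose Nos2, its change differed by limma's F test for a line-specific guide effect, the interaction (adjusted p = 0.0193, where 60.3% of genes passed). With the guide against B2m, Nos2 in Hepa1-6 reached 0.789 ± 0.0386 RPKM, beside 0.856 ± 0.251 in MC38 sgB2m.

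Genes around Nos2 differed in direction among themselves. Lgals9, which encodes galectin-9 and lies 2.72 kb away on the other strand, fell in Hepa1-6 (-0.40 ± 0.03) and rose in MC38 (0.47 ± 0.05), LLC1 (0.98 ± 0.08) and AKR (0.58 ± 0.07). Its adjusted p was at most 1.06e-04 in each line, and its direction was opposite to that of Nos2 in Hepa1-6 and LLC1. Lyrm9, 73.9 kb to the other side, fell in LLC1 (-0.73 ± 0.08) and rose in Hepa1-6 (0.37 ± 0.10), as Nos2 did. Of 28 listed neighbours within 500 kb, 14 were tested in Hepa1-6, with 4 higher and 5 lower, and 14 in LLC1, with 2 higher and 6 lower, beside 37.8% and 42.4% of all genes called in these lines. The others that rose in Hepa1-6 were Ksr1 (0.38), Wsb1 (0.39) and Tnfaip1 (0.08), and Tmem199, Poldip2, Ift20 and Tmem97 fell there by 0.09 to 0.42 on the log2 scale. In LLC1 the other calls were Ift20 (0.36), higher, and Tmem199, Poldip2, Nlk, Wsb1 and Nf1, lower. In AKR, Slc46a1, Tmem199 and Poldip2 rose and Tnfaip1, Tmem97 and Nf1 fell, and in MC38 Tmem199 and Tnfaip1 fell. Sarm1 in MC38 had 76 reads over the sgNT libraries and 9 over the sgB2m ones; it passed the filter through sgNT alone and so had to differ. Slc13a2, Gm11195, Vtn, Sebox, D11Bhm181e, Gm22947, Gm17235, Gm11196, Ccnq, Gm11201, Gm11200, Gm44787, Gm9964, Gm11198 and Gm11199 were called in no line.

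Macrophage markers also moved in some edited lines and are given beside the nitric oxide and arginase values. In Hepa1-6, 6 of 12 were tested, where 37.8% of all genes were called. Cd68 and Cd14 rose and Csf1r fell, and the summed level of the list was 1911 to 2080 in sgB2m and 1081 to 1127 in sgNT. Reads of Mrc1 numbered 2 in sgNT and 107 in sgB2m, those of Aif1 5 and 87; both passed the filter through sgB2m alone and so had to differ. Adgre1, Fcgr1 and Tyrobp were not listed, and Ptprc had 2 and 8 reads. AKR had 4 tested, of which Cd68 and Cd14 rose, where 42.9% of all genes were called. The AKR sum was 7249 to 7599 in sgB2m against 2763 to 2914 in sgNT. LLC1 had 4 tested and 2 lower, where 42.4% of all genes were called. The LLC1 sums were 376 to 445 in sgB2m and 531 to 690 in sgNT, and in MC38 the ranges overlapped (1655 to 1858 and 1697 to 1912). The part of these genes in the Nos2 and arginase values was not tested, and in bulk RNA more cells of a type and more RNA per cell cannot be told apart.

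Ass1 (chr2:31470207-31520672, plus strand), which joins citrulline and aspartate, was highest in MC38 controls at 18.02 ± 1.78 CPM and lowest in AKR at 3.60 ± 0.359, with no overlap between any lines next to each other in the order MC38, Hepa1-6, LLC1, AKR. In AKR it rose from 123, 102 and 114 to 213, 191 and 180 normalised counts (0.78 ± 0.14, adjusted p = 0.00104). All 3 edited AKR libraries lay above the controls. In MC38 it went from 587, 629 and 711 to 780, 790.1 and 850.4, again with no overlap (0.33 ± 0.09, adjusted p = 0.0218). That call was lost without sgB2m replicate 2 or 3 or sgNT replicate 2 (adjusted p = 0.0507, 0.0844 and 0.0670). LLC1 (-0.28 ± 0.17, adjusted p = 0.213) and Hepa1-6 (-0.21 ± 0.12, adjusted p = 0.187) had values below 0 that did not pass.

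Asl (chr5:130011258-130029247, minus strand), which cleaves argininosuccinate to arginine and fumarate, rose in AKR and LLC1 and fell in MC38. AKR went from 977, 906 and 898 to 1441, 1313 and 1459 normalised counts (0.60 ± 0.07, adjusted p = 3.88e-05). LLC1 went from 933, 927 and 924 to 1281, 1161 and 1257 (0.41 ± 0.06, adjusted p = 6.72e-05). In both lines the lowest edited library was above the highest control. MC38 went the other way, from 1338, 1462 and 1511 to 1045, 1174 and 1125 (-0.37 ± 0.08, adjusted p = 0.00460), while the Hepa1-6 groups overlapped (-0.09 ± 0.06, adjusted p = 0.262). The 2 enzymes of arginine synthesis therefore rose together in AKR alone by these tests, and they were called in opposite directions in MC38.

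Arg1 (chr10:24915221-24927484, minus strand), the cytosolic arginase of liver and of some macrophages, was expressed in AKR. Its control level there was 12.1 ± 1.49 CPM, against at most 0.0722 in the other lines, whose ranges overlapped. In AKR the sgNT libraries had 423, 334 and 384 normalised counts and the sgB2m libraries 409.9, 439 and 406, overlapping (0.14 ± 0.10, adjusted p = 0.292). Elsewhere the reads were too few to test: 8 in sgNT and 0 in sgB2m in MC38, 5 and 0 in LLC1, and 5 and 20 in Hepa1-6. Hepa1-6, the liver-derived line, thus had almost no Arg1 in either group.

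Arg2 (chr12:79130777-79156301, plus strand), the mitochondrial arginase, had its highest level in Hepa1-6, at 7.24 ± 0.824 CPM in controls, above LLC1 (0.628 ± 0.129) and AKR (0.389 ± 0.276), which overlapped. In Hepa1-6 it rose from 178, 217 and 223 normalised counts to 666, 696 and 699. The edited libraries stood 3.33-fold above the controls with no overlap (1.74 ± 0.11, adjusted p = 7.71e-09). In LLC1 the values were 21.3, 14.8 and 15.8 in sgNT and 17.8, 19.7 and 15.3 in sgB2m (0.03 ± 0.37, adjusted p = 0.952). AKR had 22.0, 6.81 and 7.70 in sgNT and 24.9, 17.3 and 19.8 in sgB2m (0.88 ± 0.48, adjusted p = 0.166). One control library overlapped the edited ones there. Without it the change was 1.38, but the gene then passed the filter through sgB2m alone and so had to differ. The change of Arg2 differed between LLC1, AKR and Hepa1-6 by limma's F test of the interaction (adjusted p = 0.00846, where 61.0% of genes passed).

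Odc1 (chr12:17544794-17551505, plus strand), the first and rate-limiting enzyme of polyamine synthesis, fell in MC38 and LLC1. MC38 went from 8198, 7938 and 8449 normalised counts to 4607, 4623 and 4904 (-0.80 ± 0.05, adjusted p = 1.65e-06). LLC1 went from 10763, 11011 and 11226 to 6344, 6713 and 6629 (-0.75 ± 0.03, adjusted p = 3.22e-10). In both lines the groups were well apart, with controls 1.74-fold and 1.68-fold above the edited cells. In AKR the sgNT libraries had 8303, 8346 and 8248 and the sgB2m libraries 8592, 8169.7 and 8197, overlapping (0.00 ± 0.04, adjusted p = 0.955). Hepa1-6 went from 7429, 7409 and 7584 to 7751, 7657 and 7919, which did not overlap but did not pass (0.06 ± 0.03, adjusted p = 0.144).

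Sms (chrX:157443855-157492287, minus strand), spermine synthase, fell in the same 2 lines and slightly in Hepa1-6. MC38 went from 3680, 3701 and 3647 to 1916, 2035 and 1950 normalised counts (-0.90 ± 0.05, adjusted p = 1.30e-06). LLC1 went from 4146, 3979 and 4240 to 2888, 2957 and 2858 (-0.51 ± 0.04, adjusted p = 1.51e-07). No edited library of either line reached a control. In Hepa1-6 the values were 1425, 1499 and 1518 in sgNT and 1300, 1277 and 1321 in sgB2m (-0.19 ± 0.06, adjusted p = 0.0146). That call was lost without sgNT replicate 3 (adjusted p = 0.0611). The AKR groups overlapped, at 3526 ± 146 in sgNT and 3549 ± 89.8 in sgB2m (0.01 ± 0.05, adjusted p = 0.885).

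Sat1 (chrX:155213132-155216449, minus strand), the acetyltransferase that starts polyamine breakdown, rose in 3 lines and fell in MC38. AKR went from 10632, 10806 and 10542 to 19206, 17984 and 18035 normalised counts (0.79 ± 0.04, adjusted p = 1.63e-07). Hepa1-6 went from 4127, 3855 and 3711 to 4869, 4898 and 4874 (0.33 ± 0.04, adjusted p = 1.22e-05). LLC1 rose from 2790, 2999 and 2882 to 3569, 3483 and 3391 (0.27 ± 0.04, adjusted p = 1.21e-04). All 3 edited libraries of these lines were above all their controls. In MC38 the direction was reversed, from 15420, 16113 and 16420 to 11823, 11609 and 11635 (-0.45 ± 0.04, adjusted p = 2.27e-05). MC38 thus had all 3 polyamine enzymes lower, LLC1 had the 2 synthetic enzymes lower and Sat1 higher, and AKR had only Sat1 changed among the 3.

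On the per-length scale, Odc1 and Sat1 were the most abundant of the 10 genes in the sgNT cells of every line. Sat1 led in MC38 sgNT at 162 ± 5.76 RPKM and in AKR sgNT at 122 ± 1.96, and Odc1 led in LLC1 sgNT at 117 ± 2.63 and in Hepa1-6 sgNT at 77.1 ± 0.534. Nos2 was below 1 in every group. Between lines, the control level of Odc1 in CPM was highest in LLC1 (399 ± 8.95), did not separate AKR (264 ± 3.17) from Hepa1-6 (263 ± 1.82), and was lowest in MC38 (230 ± 6.15). Sms ran from 149 ± 5.52 in LLC1 to 52.0 ± 1.51 in Hepa1-6, and Sat1 from 449 ± 15.97 in MC38 to 105 ± 3.38 in LLC1. Slc7a1 was highest in AKR (600.3 ± 18.8) and lowest in MC38 (155 ± 13.4).

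All 6 genes that were tested in all 4 lines (Slc7a1, Ass1, Asl, Odc1, Sms and Sat1) changed differently between lines by limma's F test of the interaction, with adjusted p from 2.56e-14 to 3.45e-05. The same test called 69.8% of 12674 genes, so a difference between lines is the common case in these data. Slc7a1, Asl and Sat1 were each called higher in some lines and lower in others.

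The other genes of the pathway were read from a list of 60 in 4 groups. In MC38, 50 were tested, 6 rose and 14 fell, with a median log2 change of -0.14. LLC1 had 50 tested, 6 higher and 18 lower (median -0.16). AKR had 48 tested, 13 higher and 10 lower (median -0.01), and Hepa1-6 had 47 tested, 9 higher and 15 lower (median 0.02). These are 20, 24, 23 and 24 calls, beside the 31.8%, 42.4%, 42.9% and 37.8% of all genes called in the same lines. The MC38 count ranged from 11 to 24 when single libraries were left out: it was 13 without sgB2m replicate 1 (6 higher and 7 lower) or 3 (4 and 9), 11 without sgNT replicate 2 (5 and 6) and 15 without sgNT replicate 3 (7 and 8). The excess of lower calls was thus small without sgB2m replicate 1, sgNT replicate 2 or sgNT replicate 3.

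**Figure D4:**
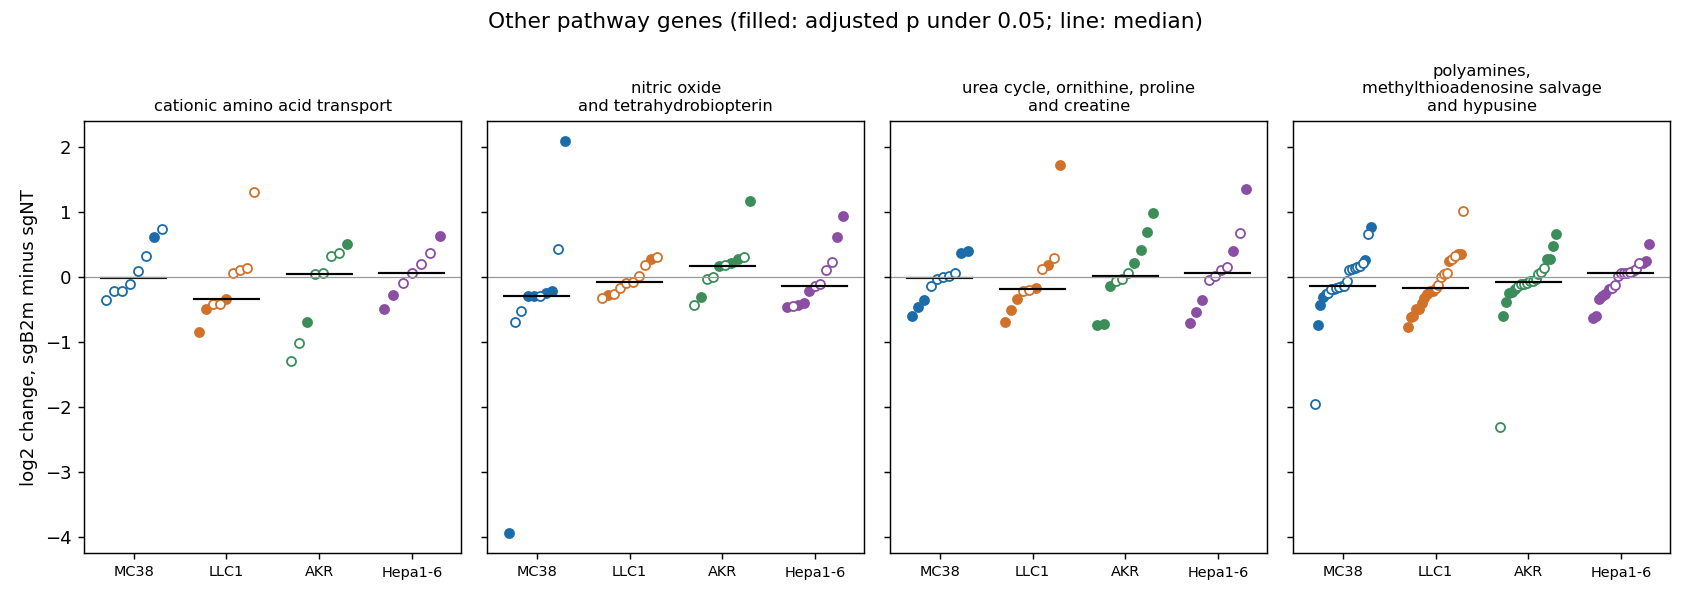
Log2 change of every tested gene of the 4 pathway groups, by line; filled points have an adjusted p under 0.05 and bars are medians. Group medians lie between -0.34 and 0.18, with single genes far from them.

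Among cationic amino acid transporters, Slc3a2 (the CD98 heavy chain, partner of Slc7a6 and Slc7a7) changed in the same direction as Slc7a1 in 3 lines. It fell in AKR from 17599 to 10948 normalised counts (-0.69) and in LLC1 (-0.48 ± 0.03), and rose in Hepa1-6 (0.63 ± 0.03, adjusted p = 3.76e-10). In LLC1 the group had 9 tested genes, 3 lower and none higher: Slc7a3 (-0.84 ± 0.07), the brain-type cationic transporter, Slc7a6 (-0.34) and Slc3a2. In MC38, 1 of 8 was called, the lysosomal exporter Slc66a1, higher (0.61 ± 0.09, adjusted p = 7.94e-04). AKR had 8 tested, with Slc66a1 higher (0.51) and Slc3a2 lower, and Hepa1-6 had 7 tested, with Slc25a15 (-0.28) and Slc66a1 (-0.48) lower. These counts stand beside 42.4% of all genes called in LLC1, 31.8% in MC38, 42.9% in AKR and 37.8% in Hepa1-6.

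In the nitric oxide group, Gch1, which makes the cofactor tetrahydrobiopterin, rose in AKR from 222 ± 15.9 to 503 ± 50.5 (1.17 ± 0.11, adjusted p = 1.04e-05) and in Hepa1-6 (0.61). In Hepa1-6, 11 genes of the group were tested, 2 higher and 4 lower. Ddah2, which clears methylated arginines that inhibit nitric oxide synthases, rose (0.94 ± 0.25, adjusted p = 0.00672), while Ddah1 (-0.40), Spr (-0.46), Pcbd1 (-0.43) and Qdpr (-0.21) fell. In MC38, 10 were tested, 1 higher and 5 lower. The higher one was the neuronal synthase Nos1, on 38 reads in sgNT and 139 in sgB2m (2.09 ± 0.47, adjusted p = 0.00704). Among the lower, Pts, Qdpr, Ddah2 and Nosip fell by 0.30 or less. The other was Gchfr, the feedback regulator of Gch1, with 94 sgNT reads and 5 sgB2m reads; it passed the filter through sgNT alone and so had to differ. AKR had 10 tested, 4 higher (Gch1, Qdpr, Ddah2 and Nosip) and 1 lower (Pts), and LLC1 had 10, with Qdpr higher and Ddah1 lower. Over all genes the called shares were 37.8% (Hepa1-6), 31.8% (MC38), 42.9% (AKR) and 42.4% (LLC1).

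Proline genes gave the largest named changes of the urea cycle group. Pycr1, which makes proline, rose in Hepa1-6 from 185 ± 39.3 to 468 ± 13.3 (1.36 ± 0.14, adjusted p = 1.77e-06) and fell in AKR (-0.73 ± 0.07). Aldh18a1, which makes the proline and ornithine precursor, went the same ways (0.41 in Hepa1-6 and -0.72 ± 0.04 in AKR). Aldh4a1, of proline breakdown, rose in LLC1 from 51.5 to 171 (1.72 ± 0.19, adjusted p = 3.77e-06) and in AKR (0.99 ± 0.13), and fell in Hepa1-6 (-0.70 ± 0.09). In MC38, Prodh (-0.47 ± 0.12) and the creatine enzyme Gamt (-0.60 ± 0.18, adjusted p = 0.0278) fell. Gatm, which moves the amidino group of arginine to glycine, rose in AKR (0.69 ± 0.06). The counts in this group were 2 higher and 3 lower of 10 in MC38, 2 and 4 of 10 in LLC1, 4 and 3 of 10 in AKR, and 2 and 3 of 10 in Hepa1-6. They stand beside 31.8%, 42.4%, 42.9% and 37.8% of all genes called in these lines.

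The polyamine group had 22 genes. In LLC1, where Odc1 and Sms fell, 21 were tested, 3 rose and 10 fell, beside 42.4% of all genes called. Srm, spermidine synthase, fell from 2497 ± 104 to 1466 ± 23.1 (-0.77 ± 0.05, adjusted p = 1.77e-08), the antizyme inhibitor Azin1 fell (-0.60), and the antizymes Oaz1 (0.25) and Oaz2 (0.35), which target Odc1 for degradation, rose. In MC38 all 22 were tested, 2 rose and 6 fell: Mtap, the first enzyme of methylthioadenosine salvage, fell from 10167 ± 54.7 to 6109 ± 290 (-0.74 ± 0.05, adjusted p = 2.47e-06), and Sat2 rose (0.76 ± 0.15). Srm was not among the genes called in MC38. Mri1 fell in LLC1 (-0.61 ± 0.06), and Apip, another salvage enzyme, fell in Hepa1-6 (-0.63 ± 0.11). AKR had 4 higher and 5 lower of 20, and Hepa1-6 had 4 higher and 6 lower of 19. The shares of all genes called were 31.8% in MC38, 42.9% in AKR and 37.8% in Hepa1-6. Eif5a, the translation factor that carries the spermidine-derived hypusine, fell in all 4 lines, by 0.18 to 0.49 on the log2 scale. Amd1 and Amd2 are near-identical copies, so their reads can be split.

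A list of 10 regulators known to act on these genes was also read. In Hepa1-6, 7 of 10 rose and 1 fell, where 37.8% of all genes were called, and in MC38 4 rose and none fell, beside 31.8%. AKR had 0 higher and 7 lower, beside 42.9%, and LLC1 had 2 higher and 5 lower, beside 42.4%. Myc, an activator of Odc1, fell in LLC1 (-1.24 ± 0.04) and AKR (-1.16 ± 0.07), rose in Hepa1-6 (1.10 ± 0.03) and was at 0.02 ± 0.05 in MC38 (adjusted p = 0.843). The activators of Nos2 in inflammation, Nfkb1 (0.48 ± 0.05), Rela (0.22 ± 0.07) and Irf1 (0.56 ± 0.06), rose in Hepa1-6. Irf1 also rose in MC38 (0.20 ± 0.07) and fell in AKR (-0.18 ± 0.06). Cebpb and Hif1a rose in MC38 (0.59 and 0.41) and Hepa1-6 (0.50 and 0.29) and fell in LLC1 (-0.63 and -0.29) and AKR (-0.39 and -0.21), the same signs as Slc7a1. Atf4 fell in LLC1 (-0.41) and AKR (-0.23), Stat6 rose in LLC1 (0.24) and fell in AKR (-0.13), and Max fell in LLC1 (-0.19).

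Over the 24 libraries, the genes with levels most like Slc7a2 by Pearson correlation of log2(CPM + 1), among 19048 compared, were its neighbour Gm5345 (r = 0.991), Akr1c18 (r = 0.959) and Grb14 (r = 0.931). Akr1c18, a steroid dehydrogenase, had 3.67 CPM in MC38 sgNT and 0.253 in MC38 sgB2m, and 5.57 and 6.66 in Hepa1-6. Grb14, an adaptor of the insulin receptor, went from 24.1 to 5.86 in MC38 and from 26.3 to 25.7 in Hepa1-6. For Nos2 the nearest were Mtf1 (r = 0.839), Rnf166 (r = 0.838) and Slk (r = 0.835), all of them more abundant and less variable than Nos2. Genes without an entry in a line were set to 0 there, which holds for Slc7a2 and Gm5345 in both LLC1 and AKR. The patterns also include the MC38 values of Slc7a2 and the Hepa1-6 values of Nos2 that chose the group. The 24 points share 4 lines and 8 groups, so these correlations describe likeness of levels only and are no test.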

How the data were processed

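RNA-seq libraries of 4 mouse tumour lines, 3 per line and guide, were analysed from a deposited table for each line. The tools named are FastQC 0.11.5, STAR and DESeq2, and the build mm10, per the submitters' processing notes; the gene counter, its annotation and its strand setting are not given in the sources used here. The deposited values are log2(count divided by a size factor + 1), normalised by the authors within each line: reads recovered from them were whole within 0.05 reads for 100% of values. Unstranded counting would mix genes with antisense partners. Library depth was 25.0 M to 49.7 M reads, and read numbers, floors and bounds cover counting error only.

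Each line was fitted alone in R 4.3.3 with limma 3.58.1 (moderated two-sided test, intensity trend, no covariate) on genes whose log2 value reached 3.5 in 3 or more of the 6 libraries. P-values were adjusted by Benjamini-Hochberg over all tested genes, and calls had an adjusted p under 0.05. Because of the pseudocount of 1, fold changes of rare transcripts are understated. Lines were compared through a limma F test of the interaction over all 24 libraries. The fit was tested on simulated data. Levels across lines are recovered reads as CPM, or RPKM with GENCODE exon lengths, with no test. Positions are from GENCODE vM21 (GRCm38, the same assembly as mm10).

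The genes and lists were chosen with earlier results of these data known. Named were all 10 genes, the regulators, the 5 largest called changes per line in the pathway list (the higher group's mean reaching 6 on the log2 scale, groups not overlapping), genes within 500 kb of Slc7a2 and Nos2, and the 3 nearest patterns; other pathway genes and markers were named after their values were seen. Some listed genes are counted but not reported here by name. Slc66a1 and Pycr3 were matched through older names in the tables. Same-numbered libraries of the 2 guides deviated together little or not at all (correlations between -0.03 and 0.05), so the main fit did not pair them. In LLC1 alone every library correlated best with its own number, at 0.023 to 0.051. Alternatives covered the pseudocount, filter, trend, scaling, voom, a replicate block and left-out libraries.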

Additional observations from a re-analysis of the deposited data

Results flagged for a closer look

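The change with the B2m guide differed between lines, by limma's interaction F test, for each of the 6 genes tested in all 4 lines; the same test called 69.8% of all genes. The adjusted p was 2.56e-14 for Odc1, 5.52e-14 for Sat1, 1.43e-12 for Slc7a1, 1.10e-11 for Sms, 5.22e-09 for Asl and 3.45e-05 for Ass1. Sat1 was lower in edited MC38 cells (-0.45) and higher in edited AKR cells (0.79), while Sms was at -0.90 in MC38 and 0.01 in AKR. Among MC38, LLC1 and AKR the change of Nos2 differed (adjusted p = 0.0193), between 0.28 in MC38 and -1.32 in LLC1. Among LLC1, AKR and Hepa1-6 the change of Arg2 differed (adjusted p = 0.00846), between 0.03 in LLC1 and 1.74 in Hepa1-6. These last 2 comparisons over 3 lines were chosen after seeing the data.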

How the results depend on the processing

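Of 525 values of the 10 genes and B2m under alternative settings, 506 kept their direction and side of the threshold, or moved by less than 1 SD where no test was made. In 10, a value that was called under neither setting changed sign: Arg2 in LLC1 (-0.00627 with quantile normalisation, -0.0631 to 0.186 without single libraries), and, without single libraries, Nos2 (-0.766 to 0.0214), Odc1 (-0.0203 to 0.0161) and Sms (-0.0114 to 0.0435) in AKR. With a pseudocount of 8, Slc7a2 in MC38 moved to -7.59 and Nos2 in Hepa1-6 to 3.26. The 7 changed calls were Ass1 in MC38, lost without the intensity trend (adjusted p = 0.0541) and without 3 of the 6 libraries in turn, Sms in Hepa1-6, lost without sgNT replicate 3, Arg2 in AKR, gained without sgNT replicate 1, and Odc1 in Hepa1-6, gained with CPM of library totals (0.08, adjusted p = 0.0396). Without sgNT replicate 1, Arg2 in AKR passed the filter through sgB2m alone and so had to differ. The pathway genes called in MC38 fell from 20 to 11 without the trend, and the cause was not tested. Leaving out single libraries gave 5 to 6 of the genes called in MC38, 6 to 6 in LLC1, 4 to 5 in AKR and 4 to 5 in Hepa1-6. For the pathway list it gave 11 to 24 calls in MC38, 23 to 25 in LLC1, 19 to 25 in AKR and 19 to 22 in Hepa1-6, and the interaction kept 6 calls each time. With the replicate block, the genes called were 6, 6, 4 and 5 in MC38, LLC1, AKR and Hepa1-6, pathway calls 20, 24, 22 and 24, and interaction calls 6; in LLC1 alone every library correlated best with its own number. Leaving out any sgB2m library put Nos2 in Hepa1-6 below the filter, so it has no value there. Low read numbers limit Nos2 in all 4 lines, Arg2 outside Hepa1-6 and Arg1 outside AKR. In Hepa1-6, Nos2 had 10 reads in sgNT and 275 in sgB2m.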
